A study of Mus musculus with 2 samples.

Results

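The genes described here encode hepatocyte growth factor (Hgf), its receptor Met, the receptors Egfr and Erbb3, and 6 ligands of the EGF receptor, namely Areg, Ereg, Hbegf, Tgfa, Egf and Btc. These 10 genes were taken by symbol from the 33224 gene symbols in the deposited expression table. No cut on their values was used, but earlier results of these data were known. Each of the 10 was found in a single row that names no other gene.

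The table compares regenerating liver of male C57BL/6 wild-type (WT) mice with that of male C57BL/6 mice lacking PPARβ (PPARβ-null, KO). Both livers had regenerated for 48 hr after partial hepatectomy (PH). The sample labels put the mice at 4 months of age, whereas the design text has 3. Each genotype is represented by 1 library, and how many mice contributed to a library is not given in the sources used here. No value therefore carries an error between mice, and no test between genotypes was possible.

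HGF is made in the liver mainly by non-parenchymal cells such as stellate and endothelial cells, is secreted as an inactive precursor, and acts on hepatocytes through the tyrosine kinase Met after proteolytic cleavage. The EGF receptor ligands are made as membrane-anchored precursors that are shed by metalloproteases, and they bind Egfr, which can pair with Erbb3, a receptor with little kinase activity of its own. Both receptor systems signal through Ras and the MAP kinases and are known as the main direct mitogenic inputs to hepatocytes after loss of liver mass. The comparison addresses whether mRNA levels of these growth signals differed between regenerating WT and KO livers, since proliferation in KO livers is the subject of the study.

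Levels are given as FPKM (fragments per kilobase of transcript, relative to all mapped fragments), a measure per length that can be compared between genes. The depth was estimated from the steps at which low FPKM values of 1639 single-exon genes piled up. For 1 kb of transcript, a single fragment added 0.0191 FPKM in WT and 0.0182 FPKM in KO. The fragment numbers below follow from these steps and the longest annotated transcript, and the 95% intervals of ratios are exact binomial (Clopper-Pearson) intervals on them that cover counting error only. For genes with several annotated transcripts, the longest one gives an upper estimate of the fragments and hence intervals that may be too narrow. This applies to Met, Egfr and Egf, with 7, 6 and 3 transcripts, and to Nrg4, Erbb4, Adam12 and Timp3 below, with 14, 6, 5 and 4. For the 11723 genes expressed at a mean of 1 FPKM or more, log2 KO/WT had a median of -0.24, so most genes were somewhat lower in the KO library. Ppard, the targeted gene, had 2.67 FPKM in WT against 2.42 FPKM in KO. This value per locus does not itself show the loss of PPARβ, and the exons behind it were not examined.

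In regenerating livers of both genotypes the receptors were the abundant members and most ligands were scarce. In WT the levels ran in the order Egfr, Erbb3, Met, Tgfa, Hgf, Btc, Hbegf, Egf, Ereg and Areg. The order was the same in KO. By exact Poisson intervals of the levels, which cover counting error alone, neighbours in this order were apart except for Egf, Ereg and Areg in WT and Hbegf, Egf, Ereg and Areg in KO. Ereg, for example, had an interval of 0.0354 to 0.109 FPKM in WT, which holds the Egf level of 0.0790 FPKM. Egfr was the 734th most abundant of all gene symbols in the WT library and the 618th in the KO library. At the other end, Areg, Ereg and Egf were each at or below 0.148 FPKM in both libraries. The KO/WT differences left Egfr, Hgf and Tgfa near equal or slightly higher in KO, Met and Erbb3 lower, and Btc and Hbegf lower by more than 2-fold. Met was lower by about as much as the median expressed gene, and Erbb3 by more.

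**Figure D1:**
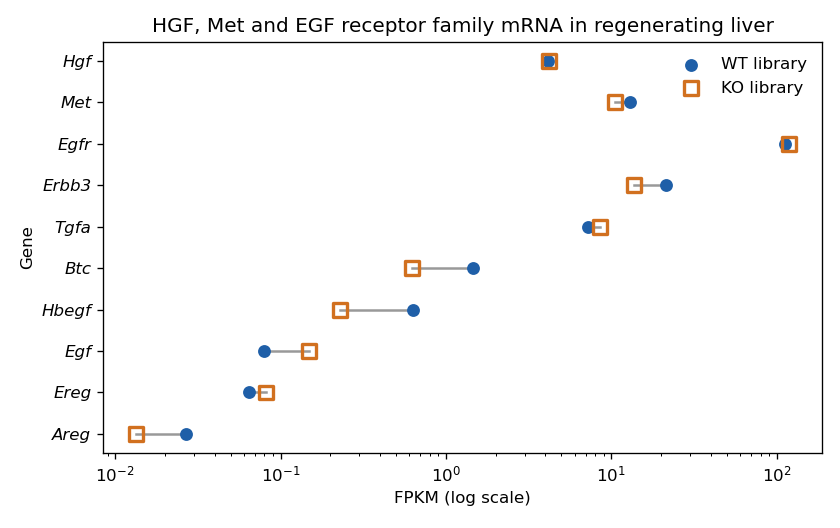
FPKM (log axis) of the 10 genes in the WT library (filled circles) and the KO library (open squares), 1 library per genotype, with a line joining both values of a gene. Egfr lies at 113 and 120 FPKM, the symbols of Hgf overlap at 4.15 and 4.22 FPKM, and Btc and Hbegf show wide gaps with the KO value on the left.

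Hgf (chromosome 5, 16059368 to 16128350, plus strand) had 4.15 FPKM in WT against 4.22 FPKM in KO. The KO/WT ratio was 1.02 (95% counting interval 0.908 to 1.14), from about 599 and 639 fragments. The libraries thus held near-equal Hgf mRNA within counting error. Relative to the median of expressed genes, the log2 KO/WT was 0.26 for Hgf, 0.32 for Egfr and 0.47 for Tgfa. In whole liver, fewer cells of a type and less RNA per cell cannot be told apart, here and below. Positions are those of NCBI37 (mm9), and the Hgf locus runs past the annotated gene, which ends at 16125257. Met (chromosome 6, 17413795 to 17523980, plus strand), the HGF receptor, had 13.0 FPKM in WT against 10.6 FPKM in KO. It was 1.23-fold lower in KO (95% counting interval 1.18 to 1.28), which is close to the median of expressed genes, since its log2 KO/WT was -0.29 and -0.06 relative to that median. Per length, Met mRNA stood 3.13-fold above that of its ligand in WT and 2.51-fold above it in KO.

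Egfr (chromosome 11, 16652206 to 16818161, plus strand) had 113 FPKM in WT against 120 FPKM in KO, the highest level among the 10 genes. The KO/WT ratio was 1.06 (95% counting interval 1.05 to 1.07), the narrowest interval of all since about 60170 and 67050 fragments stood behind it. The antisense gene E230015J15Rik, which overlaps Egfr, had a row of its own at 0.0698 FPKM in WT and 0.122 in KO. Erbb3 (chromosome 10, 128004579 to 128026708, minus strand) had 21.3 FPKM in WT against 13.8 FPKM in KO. It was 1.55-fold lower in KO (95% counting interval 1.49 to 1.61), and 21.1% of the genes at a mean of 0.1 FPKM or more had a lower log2 KO/WT. The Egfr to Erbb3 ratio of FPKM was accordingly 5.28 in WT and 8.69 in KO, while the sum of both receptors was 134 FPKM in WT and 133 in KO.

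Tgfa (chromosome 6, 86145420 to 86225151, plus strand) encodes TGFα, a ligand of Egfr that hepatocytes themselves can make. It was the most abundant of the 6 EGF receptor ligands, with 7.28 FPKM in WT against 8.60 FPKM in KO. The KO/WT ratio was 1.18 (95% counting interval 1.10 to 1.27), and 88.2% of genes had a lower log2 KO/WT. Tgfa was thus on the higher side in the KO library, in which the median gene was lower.

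Btc (chromosome 5, annotated from 91786287 to 91831939, minus strand) encodes betacellulin, which binds Egfr and Erbb4. It had 1.45 FPKM in WT against 0.626 FPKM in KO. It was 2.32-fold lower in KO (95% counting interval 1.81 to 2.98), from about 212 and 96.2 fragments. Its row carries a locus that spans 91693712 to 92631820 and is shared with rows of other genes, among them Uso1 and G3bp2, so reads had to be divided between those genes by the authors' assembly. Hbegf (chromosome 18, 36664583 to 36675459, minus strand) encodes heparin-binding EGF, a ligand of Egfr and Erbb4. It had 0.629 FPKM in WT against 0.229 FPKM in KO, or about 78.1 and 29.9 fragments. It was 2.74-fold lower in KO (95% counting interval 1.77 to 4.31), the largest fold among the 9 genes for which a fold could be given. The intervals of Btc and Hbegf overlap each other, lie below 1 as KO/WT ratios, and both include 2-fold.

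Egf (chromosome 3, 129380493 to 129458240, minus strand), which gives the receptor its name and is made largely outside the liver, had 0.0790 FPKM in WT against 0.148 FPKM in KO. With about 19.7 and 38.7 fragments, the KO/WT ratio of 1.88 had a wide 95% counting interval, from 1.06 to 3.36. Ereg (chromosome 5, 91503643 to 91522675, plus strand) encodes epiregulin and had 0.0647 FPKM in WT against 0.0822 FPKM in KO. Its ratio of 1.27 rested on about 14.0 and 18.7 fragments, and the interval, 0.615 to 2.79, included 1, so a difference was not detectable at this depth. Areg (chromosome 5, 91568641 to 91577458, plus strand), which encodes amphiregulin, had 0.0267 FPKM in WT against 0.0133 FPKM in KO. These values correspond to about 1.68 and 0.877 fragments, which are below the floor of 3 fragments in both libraries, so no fold is given.

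**Figure D2:**
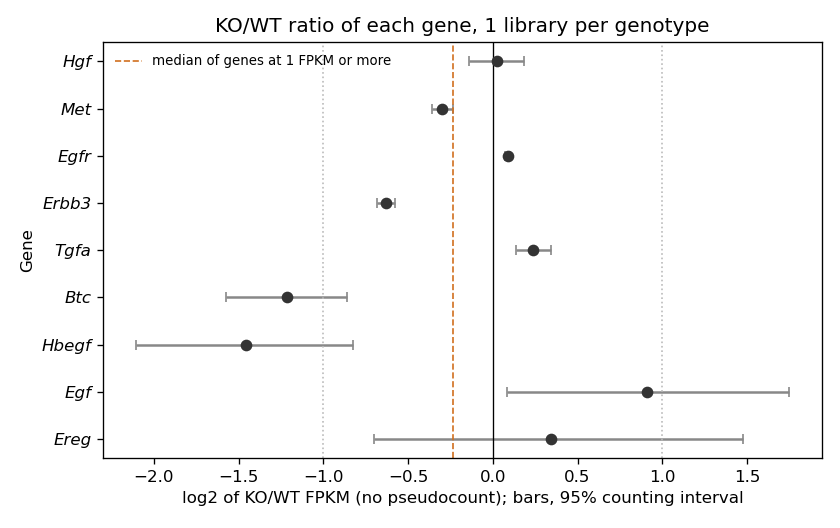
Log2 of KO/WT FPKM without a pseudocount for the 9 genes above 3 fragments (points), with 95% counting intervals (bars), the median of genes at a mean of 1 FPKM or more (dashed line) and 2-fold in either direction (dotted lines). Btc and Hbegf lie left of the lower 2-fold line with intervals that cross it, Erbb3 lies between that line and the dashed line, and Egfr, Hgf and Tgfa lie within 0.24 of 0.

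On the scale of the deposited values, the 6 EGF receptor ligands had a near-equal summed level in both libraries but a different make-up. The sum was 9.53 FPKM in WT and 9.70 in KO, a KO/WT ratio of 1.02. This ratio depends on how the libraries are scaled. The KO/WT ratio of Tgfa, the largest part of the sum, became 1.39 after centring and 1.43 with equal upper quartiles. Tgfa held 76.4% of this sum in WT and 88.7% in KO. The share of Btc was 15.2% in WT and 6.46% in KO, and that of Hbegf was 6.59% and 2.36%. Without Tgfa, the other 5 ligands summed to 2.25 FPKM in WT and 1.10 in KO, which was 2.05-fold lower. Since Tgfa was higher and Btc and Hbegf lower in KO, the Tgfa to Hbegf ratio of FPKM stood at 11.6 in WT but 37.5 in KO, and the Tgfa to Btc ratio was 5.02 and 13.7. These ratios within a library do not depend on how the libraries were scaled. Egfr exceeded the summed ligands by 11.8-fold in WT and 12.3-fold in KO.

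**Figure D3:**
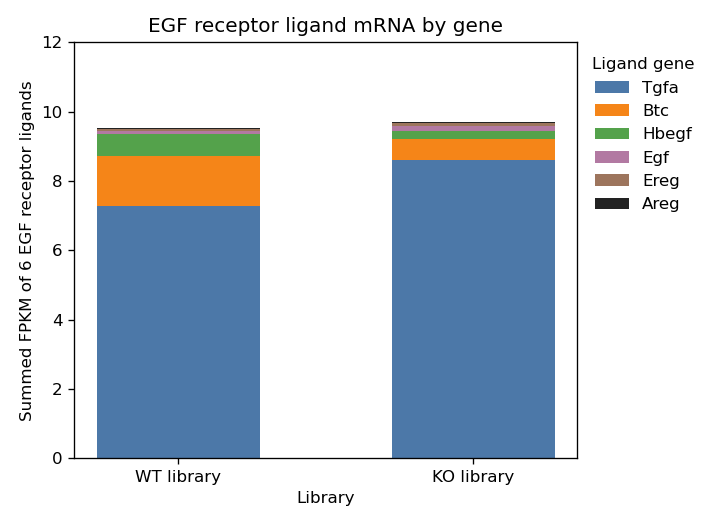
Stacked FPKM of the 6 EGF receptor ligand genes in the WT and KO libraries, 1 bar per library. The bars reach 9.53 and 9.70 FPKM, and the Btc and Hbegf segments are thinner in the KO bar while the Tgfa segment is taller.

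For counts over genes, log2 KO/WT was taken with a pseudocount of 0.1 FPKM among the 15727 genes whose mean was 0.1 FPKM or more, and a gene past 2-fold was called. Of the 10 genes, 8 reached this mean, all except Areg and Ereg. Past 2-fold, 2 of the 8 were lower in KO, Btc and Hbegf, beside 9.94% of all genes. None of the 8 was higher past 2-fold, beside 2.08% of all genes. Past 1.5-fold, 3 of the 8 were lower, with Erbb3 added, beside 22.9% of all genes, and 0 were higher, beside 4.93%. Low genes passed more often. Among genes with a mean FPKM from 0.1 to 1, the range of Hbegf, 14.9% were lower past 2-fold, and from 1 to 10, the range of Btc, 10.7% were. For the 8 genes log2 KO/WT had a median of -0.14, beside -0.25 over all 15727 genes, with 4 lower and 4 higher in KO. Of all 15727 genes, 74.8% were lower in KO. Relative to the median of expressed genes, the log2 KO/WT with the pseudocount was -0.91 for Hbegf and -0.86 for Btc, so neither was past 2-fold on that scale. Without a pseudocount, the KO/WT ratio relative to that median was 0.429 for Hbegf, still past 2-fold, and 0.508 for Btc, just short of it. For Egf it was 2.21, past 2-fold higher, from few fragments.

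Epgn, Ereg, Areg and Btc lie on chromosome 5 within 375 kb, and Btc is the one on the minus strand. Of these, Btc alone reached a mean of 0.1 FPKM. Epgn, which encodes epigen, a further EGF receptor ligand, had an FPKM of 0.0120 in WT and was listed at 0 in KO.

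The nearest relatives of the family had 2 of 5 measurable genes past 2-fold lower in KO and none higher, beside 9.94% and 2.08% of all genes. Nrg4, which encodes a neuregulin that binds Erbb4, had 20.3 FPKM in WT against 8.20 FPKM in KO, 2.48-fold lower (95% counting interval 2.30 to 2.68). Nrg4 mRNA exceeded that of each of the 6 EGF receptor ligands in WT. In KO it was close to the 8.60 FPKM of Tgfa, whose 95% counting interval was 8.20 to 9.01 FPKM. Which of both was higher in KO was not tested. Erbb4 itself, a receptor for Nrg4, Btc and Hbegf, was low in both libraries, with 0.251 FPKM in WT against 0.0596 FPKM in KO, 4.21-fold lower (95% counting interval 2.98 to 6.20). Mst1, which encodes the HGF-like macrophage stimulating protein, had 54.6 FPKM in WT against 55.2 FPKM in KO. For these 5 genes log2 KO/WT had a median of -0.95.

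Among 12 genes for proteases that activate HGF and for their inhibitors, 3 were past 2-fold lower and 1 was higher in KO. The shares over all genes were 9.94% and 2.08%. The list median of log2 KO/WT was -0.06. The mRNAs for the hepatocyte-made proteins were abundant. Plg, which encodes plasminogen, had 516 FPKM in WT against 741 FPKM in KO, and Hpn, which encodes the membrane protease hepsin, had 208 and 211. The plasminogen activator genes were scarce and lower in KO. Plau, for urokinase, had 0.623 FPKM in WT against 0.130 FPKM in KO, 4.78-fold lower (95% counting interval 2.75 to 8.47). Plat, for tissue plasminogen activator, was 3.62-fold lower, with 0.517 and 0.143 FPKM, and Plaur, for the urokinase receptor, was 2.64-fold lower, with 0.884 and 0.335 FPKM.

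Of 7 genes for the shedding of EGF receptor ligands, 2 were past 2-fold lower in KO and none was higher. Over all genes, 9.94% were lower and 2.08% higher past 2-fold. The list median of log2 KO/WT was -0.49. The most abundant were Adam9, with 19.0 FPKM in WT against 20.6 FPKM in KO, and Adam10, with 12.1 and 7.80. Adam12 had 0.288 FPKM in WT against 0.0270 FPKM in KO, 10.6-fold lower (95% counting interval 5.96 to 22.8). Timp3, which encodes an inhibitor of metalloproteases, was also lower, with 4.21 FPKM in WT against 1.52 FPKM in KO (2.77-fold, 95% counting interval 2.47 to 3.12). Thus both a protease and an inhibitor were among the lower genes. Of 4 partner proteins at the cell surface, Cd44 was 3.04-fold lower in KO, with 1.54 FPKM in WT against 0.507 FPKM in KO. Sdc1, a heparan sulfate proteoglycan, had 162 and 122 FPKM and Nrp1 had 30.3 and 38.5. The median of the 4 genes was -0.49.

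The signal relay below the receptors was near the level of other genes. None of the 17 adaptor, Ras and MAP kinase genes was past 2-fold in either direction, and their median log2 KO/WT was -0.12. Map2k2 had 55.6 FPKM in WT against 67.0 FPKM in KO. Among 19 feedback and Etv genes, 1 was past 2-fold lower and 1 higher, with a median of -0.09. Errfi1, which encodes the Egfr inhibitor MIG6, was the most abundant, with 339 FPKM in WT against 384 FPKM in KO. Dusp6, a MAP kinase phosphatase gene that signalling through this cascade is known to induce, had 22.1 FPKM in WT and 35.7 in KO, a KO/WT ratio of 1.62. Dusp4 and Dusp5, for nuclear phosphatases of the same family, went opposite ways. Dusp4 was 4.74-fold lower, with 1.46 FPKM in WT and 0.308 in KO, and Dusp5 was 2.21-fold higher, with 0.975 and 2.15. Over the 68 genes of these 6 lists, 64 reached the mean of 0.1 FPKM, and of these 9 were past 2-fold lower and 2 higher in KO, beside 9.94% and 2.08% of all genes.

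**Figure D4:**
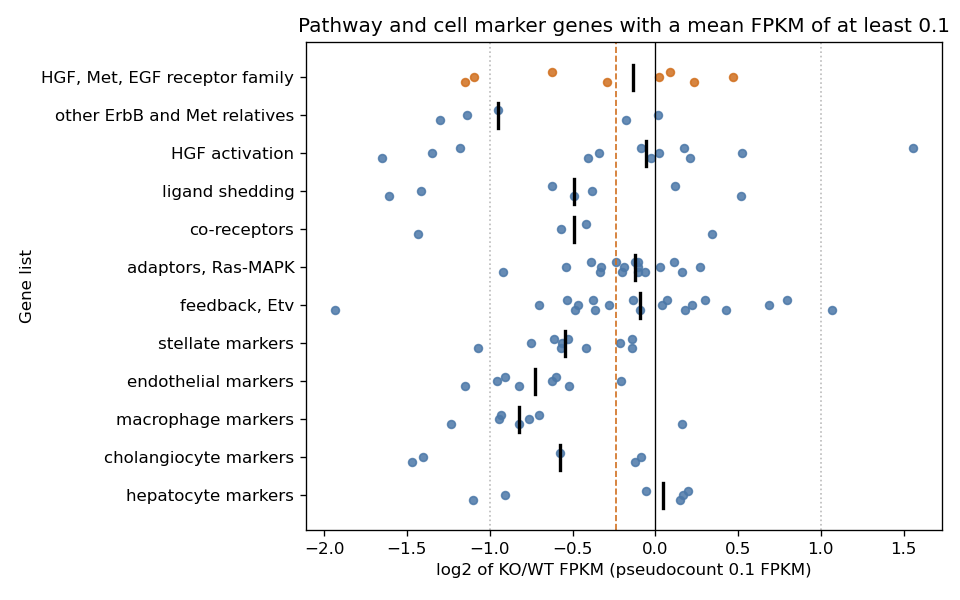
Log2 of KO/WT FPKM (pseudocount 0.1 FPKM) of each gene at a mean of 0.1 FPKM or more, by list, with the list median (black bars), the median of genes at a mean of 1 FPKM or more (dashed line) and 2-fold in either direction (dotted lines). The 17 adaptor, Ras and MAP kinase genes lie between the dotted lines, while most stellate, endothelial and macrophage marker genes lie left of the dashed line.

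Most markers of cells known to make some of these ligands were lower in the KO library, in which 74.8% of all genes were lower. Past 2-fold, 1 stellate, 1 endothelial and 1 macrophage marker were lower, beside 9.94% of all genes. All 10 stellate cell markers were lower, with sums of 104 and 77.3 FPKM in WT and KO, and 7 of them were below the median of expressed genes. Dcn had 62.6 FPKM in WT and 46.9 in KO, Colec11 had 8.87 and 8.02, and Reln had 9.56 and 6.40. All 8 endothelial markers were lower, with sums of 66.2 and 45.9 FPKM, led by Clec4g (21.8 and 18.9), Fcgr2b (12.2 and 8.47) and Stab2 (9.66 and 6.23). Of 7 macrophage markers 6 were lower, with sums of 59.7 and 37.3 FPKM. Cd5l had 18.4 and 10.8 FPKM and Clec4f 17.3 and 10.6, while Marco had 6.58 and 7.37. Hgf, at a KO/WT ratio of 1.02, was not lower with these lists, whose summed ratios were 0.741, 0.693 and 0.626. The part of these cells in the Hgf values and in the lower Btc and Hbegf values was not tested.

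Other cell markers were measured in the same way. Hepatocyte markers, whose defining gene Alb was a failed estimate, stood at a median of 0.05 in log2 KO/WT, and 3 of 6 were lower. Apoa1 had 3061 FPKM in WT and 3503 in KO, Ttr 2503 and 2406, and Cps1 1597 and 743. All 5 measurable cholangiocyte markers were lower, with Sox9 at 1.95 FPKM in WT and 1.78 in KO and Krt19 at 1.72 and 0.559. The 3 measurable neutrophil markers were lower, with a median of -0.90, and Ly6g, Camp and Mpo were listed at 0 in both libraries. Of the 8 lymphocyte markers 4 reached the minimum and were lower, and their list summed to 0.991 FPKM in WT and 0.511 in KO. Of 6 mast cell and basophil markers only Kit reached the minimum, with 2.48 FPKM in WT against 1.85 FPKM in KO. The marker genes past 2-fold, chosen after their values were seen, were Ngfr, Lyve1, Csf1r, Cps1, Krt7 and Krt19, all lower in KO.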

How the data were processed

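RNA-sequencing of liver gave 1 library of WT and 1 of KO mice. Reads were aligned by the authors with TopHat (2.0.0) to NCBI37 (mm9), and transcripts were assembled with Cufflinks (1.3.0). The FPKM values were estimated by the authors with Cuffdiff, 1 per locus and library, and further scaling is not given in the sources used here. The file's columns of fold change, test statistic, p- and q-values hold the authors' own comparison and were not used. The methods name single end reads and the labels paired end reads. The paper, not the labels, gives the time since PH.

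Of 38016 rows, 21 marked HIDATA were left out as failed estimates and 2302 had no symbol. The 850 rows with several symbols counted for each symbol, and rows of a symbol were summed. Positions count from 1, and transcript lengths came from GENCODE vM1 on the same build. The step of 1 fragment was the spacing that best matched FPKM times length of single-exon genes of at least 1000 nt. It rests on transcript lengths and is approximate. Tables were handled in pandas 2.3.3 and numpy 2.4.6 under Python 3.11.15, with intervals from scipy 1.17.1 and plots from matplotlib 3.10.9, and steps were tested on simulated libraries. No test between genotypes was made. Alternatives covered pseudocount, low-value filter, scaling, fold and row handling.

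The genes described and the lists were chosen with earlier results of these data known. Of each pathway list, the 2 genes with the highest mean FPKM and every gene past 2-fold were named, and of marker lists the 3 with the highest mean FPKM where the list stands beside a gene described. Some genes that this rule names are not reported here, and they remain in the counts, medians and plot of their lists.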

Additional observations from a re-analysis of the deposited data

How the results depend on the processing

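No paired analysis was possible because each genotype has 1 library, and for the same reason none was left out. Depth limits Areg and Ereg most. The count of genes past 2-fold lower in KO was 2, Btc and Hbegf, beside 9.94% of all genes. It was 0 with a pseudocount of 1 FPKM, beside 4.36%. It was also 0 when centred on the median expressed gene, beside 6.87%, and 0 with equal upper quartiles, beside 6.998%. With a mean FPKM of at least 1, which leaves out Hbegf, the count was 1, beside 8.23%. The share over all genes was thus lower at each of these settings too. The median log2 KO/WT of -0.14 was -0.13 with a pseudocount of 1, -0.069 with no filter, -0.10 with equal sums of FPKM, 0.10 after centring and 0.14 with equal upper quartiles. Both of the last turned its sign, while the median of all genes tested was then -0.01 and 0.01. Of the 64 genes tested in the 6 pathway lists, 9 were past 2-fold lower and 2 higher, beside 9.94% and 2.08% of all genes. With a pseudocount of 1 these were 2 and 1, beside 4.36% and 0.92%. With a mean of at least 1 FPKM, which leaves fewer genes, they were 3 and 2, beside 8.23% and 1.7%. Past 1.5-fold, 13 were lower and 4 higher, beside 22.9% and 4.93%.

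Without a pseudocount the KO/WT ratio of Hbegf, 0.364, stayed past 2-fold at 0.429 after centring and 0.441 with equal upper quartiles, while that of Btc, 0.431, became 0.508 and 0.522. In the other direction, that of Egf, 1.88, became 2.21 and 2.27, past 2-fold higher in KO. Both values lie within its wide counting interval. KO/WT ratios moved beyond the counting interval for 5 other genes. With equal upper quartiles they were 1.23 for Hgf, 0.985 for Met, 1.29 for Egfr, 0.782 for Erbb3 and 1.43 for Tgfa, and after centring 1.20, 0.959, 1.25, 0.761 and 1.39 in the same order. Equal sums gave 1.09 for Egfr. None of the 9 ratios crossed 1 under any scaling. The values under these scalings differ by construction, since each multiplies all ratios by 1 factor.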
